A study of Mus musculus with 52 samples.

Results

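The genes described here are 9 mouse genes of iron uptake, export and storage, taken by name from the 49585 genes of the expression tables: Tfrc, Trf, Hfe and Slc11a2 for uptake, Slc40a1, Heph and Cp for export, and Fth1 and Ftl1 for storage. Their RNA was measured in 40 libraries, with 2 replicates in every group. In 24 of these libraries, cells of the cerebellum, anterior pituitary or posterior pituitary had been sorted into GFP-positive endothelial cells (ECs) and GFP-negative remaining cells. The WT mice carried Tie2-GFP alone, which marks ECs, and the stabilized mice carried Tie2-GFP, Pdgfb-CreER and BcatEx3fl. In the stabilized mice 100 µg of 4-hydroxytamoxifen (4HT) at postnatal day 10 let Cre remove exon 3 of Ctnnb1, the exon that encodes the phosphorylation sites for beta-catenin degradation, so the sorted genotypes differ in Cre and 4HT as well as in the deletion. The other 16 RNA libraries were RiboTag libraries from cortex or choroid plexus of mice 6 to 8 weeks old: "bound" is RNA precipitated with tagged ribosomes of cells with Cre history, and "input" is RNA of the whole tissue. RiboTag controls (RiboTag with Pdgfb-CreER) had received Cre and 4HT too, and their stabilized counterparts added BcatEx3fl. A further 12 ATAC-seq libraries came from GFP-positive cells of the 3 sorted tissues. All mice were labelled male adults. Pdgfb-CreER is active in ECs, recombination can leave a share of them unrecombined, pituitaries of 20 to 30 mice aged postnatal day 30 to 90 were pooled for each replicate, and choroid plexuses of 3 to 4 mice were pooled. The study's methods call the replicates biological ones, without saying how many animals went into a cerebellum or cortex replicate.

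Iron enters most cells bound to transferrin (Trf), which is taken up by the transferrin receptor (Tfrc), and leaves the endosome through the divalent metal transporter Slc11a2. Iron leaves cells through ferroportin (Slc40a1) and is oxidized on the way by the ferroxidases hephaestin (Heph) and ceruloplasmin (Cp), while ferritin, built of heavy (Fth1) and light (Ftl1) chains, stores it. Brain ECs are the site where blood iron crosses the blood-brain barrier (BBB), and their transferrin receptor is a widely used mark of BBB vessels.

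Several of these RNAs carry an iron responsive element (IRE), a hairpin that iron regulatory proteins bind when iron is low. Binding blocks translation where the hairpin lies before the coding sequence and protects the RNA where it lies after it. The annotated transcripts (GRCm38) were searched on the sense strand for C, 5 bases, CAGTGN and 5 bases that pair with the first 5, G-T pairs allowed. Of 49509 genes 423 held such a site (0.854%), and 4 of the 9 iron genes did. They are shown here, read 5′ to 3′ from the annotated transcripts with 5 further bases on each side and the 6 loop bases in capitals, because the isoform shares given later turn on which transcripts hold them.
Tfrc site 1, chr16:32631225-32631241, plus strand, exon 19, 3′ untranslated region: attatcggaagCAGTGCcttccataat
Tfrc site 2, chr16:32631604-32631620, plus strand, exon 19, 3′ untranslated region: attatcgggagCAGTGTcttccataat
Tfrc site 3, chr16:32631669-32631685, plus strand, exon 19, 3′ untranslated region: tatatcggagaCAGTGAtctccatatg
Tfrc site 4, chr16:32631716-32631732, plus strand, exon 19, 3′ untranslated region: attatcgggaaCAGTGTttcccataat
Slc40a1, chr1:45925471-45925487, minus strand, exon 1, 5′ untranslated region: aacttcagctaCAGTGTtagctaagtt
Fth1, chr19:9982738-9982754, plus strand, exon 1, 5′ untranslated region: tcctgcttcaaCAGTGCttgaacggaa
Ftl1, chr7:45459785-45459801, minus strand, exon 1, 5′ untranslated region: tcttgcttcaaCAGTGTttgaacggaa
The Tfrc sites lie in the last exon of the protein-coding transcript, and the other sites lie in first exons. No site of this strict form was found in transcripts of Trf, Hfe, Slc11a2, Heph or Cp, which says only that these letters are absent there.

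The genes lie at chr16:32608920-32632794 (Tfrc, plus strand), chr9:103204001-103230444 (Trf, minus), chr13:23702034-23710854 (Hfe, minus), chr15:100387898-100425072 (Slc11a2, minus), chr1:45908068-45926523 (Slc40a1, minus), chrX:96455359-96574485 (Heph, plus), chr3:19957054-20009145 (Cp, plus), chr19:9980598-9985098 (Fth1, plus) and chr7:45457944-45459884 (Ftl1, minus) of GRCm38.

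The sorted libraries held 12157485 to 37529274 estimated reads and the RiboTag libraries 6409013 to 21399125. Endothelial markers (10 genes) summed to 5091 to 14177 RPM (reads of every 1000000 in the library) in the GFP-positive libraries and to 10.8 to 68.6 in the GFP-negative ones. Ctnnb1 itself was present at 871 to 1833 RPM in the GFP-positive libraries of both genotypes, and a sum over the gene does not see the loss of exon 3, so it does not check the labels. One stabilized anterior pituitary library (GFP-positive replicate 2) is anterior by title but posterior by its tissue label. It was taken as anterior, and the calls in anterior ECs and the differences between tissues that rest on it are also given without it. Pituitary endocrine markers (8 genes) summed to 3729 to 4197 RPM in the stabilized anterior EC libraries, this one included, and to 293 to 668 in the stabilized posterior ones. The 4 WT cortex RiboTag libraries stand apart: the small RNA Gm23935 took 0.123 to 0.409% of TPM there and 31.0 to 52.2% in the other 12 RiboTag libraries, so the comparisons of cortex with choroid plexus in WT, and of genotypes in cortex, cannot be told apart from this difference.

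The WT ECs of the 3 sorted tissues were compared first, since cerebellum ECs form the BBB and pituitary ECs do not. Tfrc and Slc40a1 were the iron genes that set cerebellum ECs apart. Levels are in RPM throughout, and a gene is called where edgeR's adjusted p is under 0.05 and the change is at least 2-fold. Tfrc was at 733 and 690.4 RPM in the 2 WT cerebellum EC libraries, at 15.6 and 2.25 in ECs of the anterior pituitary, and at 7.38 and 2.84 in those of the posterior one. Both cerebellum libraries were far above every pituitary library, and the lobes overlapped. Erythroid markers (5 genes) summed to 4109 and 34022 RPM in the WT cerebellum EC libraries, 769 and 1361 in the anterior and 759 and 2343 in the posterior ones, with 2 and 1 called higher in cerebellum. Mural cell markers (8 genes) summed to 2985 to 3587, 878 to 1012 and 546 to 666, with 3 called higher over each lobe and 1 lower against the anterior one. Microglia and macrophage markers (10 genes) summed to 30.8 to 38.1, 167 to 179 and 63.0 to 76.1 in cerebellum, anterior and posterior ECs. Pituitary endocrine markers (8 genes) summed to 26.4 to 31.1, 3603 to 6287 and 429.6 to 2716. The 10 endothelial markers summed to 6092 to 6904, 10510 to 11547 and 13257 to 14177. Against the anterior lobe 1 of them was called lower in cerebellum, and 5 against the posterior lobe. The part of any of these markers in the tissue differences was not tested. The difference in Tfrc was 85.9-fold over the anterior lobe (log2 6.42, SE 0.76, edgeR adjusted p = 0.000186) and 149-fold over the posterior lobe (log2 7.22, SE 0.79, edgeR adjusted p = 0.000155). The folds rest on low pituitary values: over the anterior lobe the log2 difference was 8.42 without anterior replicate 1 and 5.62 without replicate 2, and over the posterior lobe it was 7.93 without posterior replicate 1. Of the 9 genes, 3 were called between cerebellum and anterior pituitary ECs, where 5.26% of all 17915 genes tested were called (3% higher in cerebellum), and 2 between cerebellum and posterior pituitary ECs, where 4.4% were (2.3% higher). All 5 calls were of higher levels in cerebellum. These comparisons share the cerebellum libraries.

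Slc40a1, the iron exporter, was at 380.7 and 449.8 RPM in WT cerebellum ECs. Its anterior pituitary values were 5.71 and 4.17, and its posterior ones 0.975 and 0.116. No 2 tissues overlapped. The posterior values stand for 28 and 2 reads, against 12693 and 12626 reads in the cerebellum. Cerebellum ECs exceeded anterior ECs 91.3-fold (log2 6.51, SE 0.57, edgeR adjusted p = 1.76e-05) and posterior ECs 759-fold (log2 9.57, SE 0.66, edgeR adjusted p = 6.52e-06). Without posterior replicate 1 the latter log2 difference was 11.72, and without replicate 2 it was 8.93. It was also the 1 iron gene called between the lobes, higher in the anterior one (log2 3.06, SE 0.54, edgeR adjusted p = 0.0158, 0.994% of all genes called, 0.34% in this direction). This call was lost with a transcript-length offset (log2 3.05, adjusted p = 0.163) and with the groups compared fitted alone (log2 3.20, adjusted p = 0.860). In these libraries microglia and macrophage markers (10 genes) summed to 167 and 179 RPM in the anterior and 63.0 and 76.1 in the posterior lobe, with 1 called higher, and pituitary endocrine markers (8 genes) to 3603 and 6287 against 429.6 and 2716, with 3 called higher, and their part in the difference was not tested. The log2 difference was 5.21 without posterior replicate 1 and 2.42 without replicate 2.

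Cp, a ferroxidase secreted or anchored at the cell surface, was at 276 and 217 RPM in cerebellum ECs, at 46.2 and 62.0 in the anterior lobe and at 118 and 117 in the posterior lobe. The 3 tissues did not overlap. The rise over the anterior lobe was called (log2 2.29, SE 0.39, edgeR adjusted p = 0.00308), and the one over the posterior lobe was not. Heph, the other ferroxidase, ran the opposite way in values, at 26.6 and 21.6 in cerebellum, 49.6 and 31.6 in anterior and 56.6 and 43.8 in posterior ECs, and was not called between any of the 3. Trf was at 8.34 and 12.4 in cerebellum ECs, below the 25.2 to 41.4 of the 4 WT pituitary EC libraries, and was not called either.

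The storage genes and the remaining uptake genes gave no call between WT ECs by edgeR. Fth1 was at 766 and 862 RPM in cerebellum, 481 and 437 in the anterior lobe and 477 and 295 in the posterior lobe. Both cerebellum libraries were above all 4 pituitary libraries. DESeq2 called the difference from the posterior lobe (log2 1.16, adjusted p = 0.00898), and so did edgeR without posterior replicate 1 (log2 1.43, adjusted p = 0.0484) and with no filter on low counts (adjusted p = 0.00110). With no filter Cp (log2 1.14, adjusted p = 0.00868) and Trf (log2 -1.87, adjusted p = 0.0322) were called between cerebellum and the posterior lobe too, and Cp between the lobes (log2 -1.15, adjusted p = 0.0143). Ftl1 ranged from 143 to 301 over the 6 libraries, Slc11a2 from 7.80 to 20.9, and Hfe, an MHC-like protein that binds the transferrin receptor, from 5.81 to 49.7. None of the 3 was called with all libraries in the fit, and without posterior replicate 1 Hfe was called higher in the anterior than in the posterior lobe (log2 2.72, adjusted p = 0.0406). Their ranges overlapped between some tissues and not others, with Slc11a2 lowest in both posterior libraries and Hfe higher in both anterior than in both cerebellum libraries. Per length, Fth1 was the most abundant of the 9 genes in TPM in all 40 RNA libraries.

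**Figure D1:**
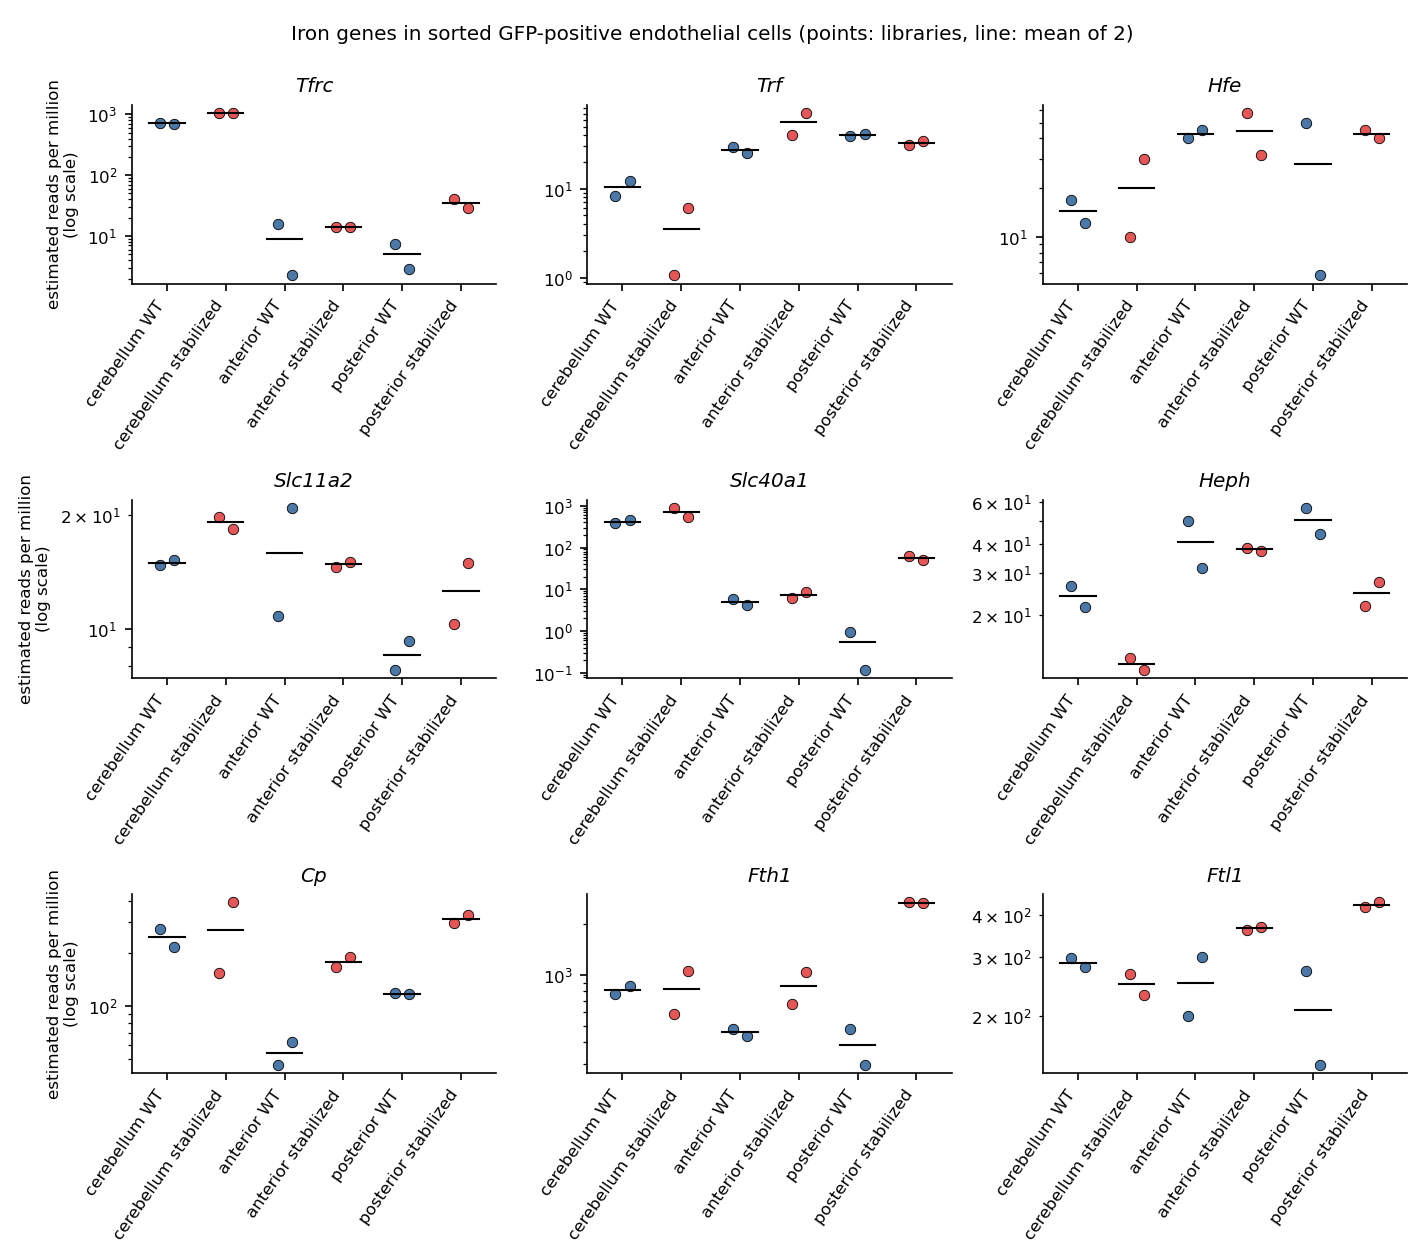
RPM (estimated reads, log axis) of the 9 iron genes in GFP-positive ECs of cerebellum, anterior and posterior pituitary, WT (blue) and beta-catenin stabilized (red). Points are libraries and the line is the mean of 2. Tfrc and Slc40a1 are highest in cerebellum, and Slc40a1 rises from 0.975 and 0.116 to 63.6 and 51.0 in posterior pituitary ECs.

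GFP-positive and GFP-negative cells of WT mice were compared to see which iron genes mark ECs within a tissue. In the cerebellum Tfrc, Slc40a1 and Cp were higher in ECs and Trf was higher in the remaining cells. Tfrc was at 129.6 and 75.8 RPM in the GFP-negative libraries, below the 733 and 690.4 in ECs (log2 2.66, SE 0.61, edgeR adjusted p = 0.00709). Slc40a1 was at 3.40 and 8.25 in GFP-negative cells (log2 5.92, SE 1.14, edgeR adjusted p = 0.00182). Both genes left a wide gap between the fractions. Trf, made in brain by oligodendrocytes and choroid plexus epithelium, was at 190 and 651 in GFP-negative cells and at 8.34 and 12.4 in ECs, a fall by 5.59 on the log2 scale (SE 0.95, edgeR adjusted p = 0.000640). It was a fall by 6.22 without GFP-negative replicate 1 and by 4.08 without replicate 2, and Slc40a1 was at log2 7.04 without replicate 2. Beside it, oligodendrocyte markers (8 genes) summed to 4456 and 15396 RPM, and choroid plexus epithelium markers (7 genes) to 11.6 and 6243, in the GFP-negative libraries. Mural markers summed to 2985 to 3587 in ECs and 432 to 742 in GFP-negative cells. Erythroid markers summed to 4109 to 34022 and 145 to 10671, and astrocyte markers (6 genes) to 153 to 179 and 7974 to 20021. The part of these markers in the results was not tested. The rise of Cp was 2.07 on the log2 scale (SE 0.53, edgeR adjusted p = 0.0131), and 2.79 without GFP-negative replicate 2. Its call was lost with the length offset (log2 2.08, adjusted p = 0.101) and without GFP-negative replicate 1 (log2 1.71). Of all genes tested 11.3% were called in this comparison, and 4 of the 9 iron genes.

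In the pituitary the pattern was another one. No iron gene was called by edgeR between anterior ECs and GFP-negative cells with all libraries in the fit, where 11.3% of all genes were, although 2 had an unadjusted p under 0.05 and DESeq2 called 1, Heph. Tfrc was called lower in these ECs without EC replicate 1 (log2 -3.27, edgeR adjusted p = 0.000762) and with no filter on low counts (log2 -1.36, adjusted p = 0.0143). Heph was called higher with only these groups in the fit (log2 2.87, adjusted p = 0.0255) and with no filter (log2 2.83, adjusted p = 0.0233). In the posterior lobe 5 of the 9 were called, beside 14.5% of all genes. Mural markers summed to 546 to 666 RPM in posterior ECs and 22.1 to 43.9 in GFP-negative cells. Erythroid markers summed to 759 to 2343 and 1.96 to 116, and neuron markers (7 genes) to 40.7 to 72.8 and 1229 to 1289. Pituitary endocrine markers summed to 429.6 to 2716 and 69098 to 94748. Their part in these calls was not tested. Heph was at 56.6 and 43.8 RPM in posterior ECs and at 4.92 and 0.0544 in GFP-negative cells (log2 4.29, SE 1.12, edgeR adjusted p = 0.0129). Cp was at 118 and 117 against 44.3 and 16.4 (log2 1.96, SE 0.52, edgeR adjusted p = 0.0147), and Trf at 39.1 and 41.4 against 10.2 and 2.77 (log2 2.63, SE 0.83, edgeR adjusted p = 0.0401). All 3 were higher in both EC libraries. Tfrc went the other way, with 7.38 and 2.84 in ECs and 28.5 and 76.0 in GFP-negative cells (log2 -3.32, SE 0.64, edgeR adjusted p = 0.00121). Ftl1 was called as well (log2 1.17, SE 0.37, edgeR adjusted p = 0.0406). All 5 calls were lost when only these groups were fitted (adjusted p of 0.0807 for Tfrc to 0.193 for Ftl1). The log2 changes were then 4.37 for Heph, 2.04 for Cp, 2.70 for Trf, -3.25 for Tfrc and 1.25 for Ftl1. With the length offset the calls of Tfrc, Trf and Ftl1 were lost (log2 -1.71, 2.45 and 1.29, adjusted p of 0.113, 0.0684 and 0.0630). Without GFP-negative replicate 2 the calls of Trf, Cp and Ftl1 were lost (0.175, 0.106 and 0.251), the log2 change of Heph was 3.44 and that of Tfrc -2.42. Without GFP-negative replicate 1 the log2 changes were 9.95 for Heph, 4.11 for Trf, 3.09 for Cp and 1.91 for Ftl1. The call of Ftl1 was also lost without EC replicate 1 (log2 0.91), and that of Trf without EC replicate 2 (log2 2.49). With reads of its processed copies (Ftl2-ps and Ftl1-ps1) added, Ftl1 was not called either (log2 1.06, edgeR adjusted p = 0.0827). Fth1 was called lower in posterior ECs by edgeR with no filter on low counts (log2 -1.02, adjusted p = 0.0187), and Slc11a2 by DESeq2 (log2 -1.32, adjusted p = 0.0292).

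The main comparison of the study set ECs with beta-catenin stabilized against WT ECs. In the main edgeR fit it gave calls among the iron genes in the posterior pituitary and in no other sorted tissue. DESeq2 and some edgeR alternatives also called Cp in anterior ECs, as given below. In posterior ECs Slc40a1, Fth1, Tfrc and Ftl1 rose in the main fit, 4 of the 9 genes. Beside them 1.25% of all genes rose and 1.79% were called in either direction. The median log2 change was 1.31 over the 9 genes and 0.01 over all genes, and 7 of the 9 were above 0.

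Slc40a1 was at 0.975 and 0.116 RPM in the WT posterior EC libraries and at 63.6 and 51.0 in the stabilized ones. The stabilized libraries were both above both WT libraries, with 1414 and 1250 reads against 28 and 2. The rise was 116-fold (log2 6.86, SE 0.60, edgeR adjusted p = 7.06e-05) and was called in all 11 settings tried. Without WT replicate 1 the log2 change was 9.03, and without WT replicate 2 it was 6.24. The stabilized level stayed below the 380.7 and 449.8 of WT cerebellum ECs.

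Fth1, the ferritin chain with ferroxidase activity, was at 477 and 295 in WT posterior ECs and at 2665 and 2653 after stabilization. These were the highest Fth1 values of all 12 GFP-positive libraries. The change was 8.21-fold (log2 3.04, SE 0.38, edgeR adjusted p = 0.00131) and was called in all 11 settings. Ftl1, the light chain, went from 273 and 143 to 423 and 437 (log2 1.31, SE 0.29, edgeR adjusted p = 0.0395). Its call was lost when reads of its processed copies Ftl2-ps and Ftl1-ps1 were added (log2 1.22, adjusted p = 0.107), and in 6 of the 11 settings in all. The ratio of Fth1 to Ftl1 in TPM, a comparison between genes per length, was 8.90 and 9.05 in the 2 stabilized posterior libraries and 1.75 to 3.90 in the other 10 GFP-positive libraries. Other kinds of library reached similar or higher ratios. They were 7.61 and 9.05 in WT posterior GFP-negative cells, 12.8 and 25.6 in stabilized cerebellum GFP-negative cells, and 15.3 and 14.6 in WT cortex input.

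Tfrc rose in the posterior lobe from 7.38 and 2.84 RPM to 41.2 and 28.6. The groups did not overlap, and the stabilized values remained far under those of the cerebellum. The change was called (log2 3.03, SE 0.66, edgeR adjusted p = 0.0395), but it was 1.08 (adjusted p = 0.501) with the length offset, and its call was lost without WT replicate 2 (log2 2.61, adjusted p = 0.127) and with only these groups fitted (log2 3.07, adjusted p = 0.129). Without WT replicate 1 it was 3.75. On the TPM scale, which counts length, Tfrc was at 10.6 and 1.72 in WT and at 10.1 and 3.03 in stabilized ECs, so the groups overlapped there. Of the Tfrc reads of WT posterior ECs (212 and 49 in all), 40.1% and 2.36% lay in transcripts with the IRE sites, against 66.9% and 100% of the 916 and 701 reads in stabilized ECs. In stabilized replicate 1 the 613 IRE reads were all in the retained intron Tfrc-204, and the coding Tfrc-201 had 0. In replicate 2 all 701 were in Tfrc-201 and 0 in Tfrc-204. Transcript estimates this unsteady between replicates do not settle whether the share differed by genotype.

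Cp was at 118 and 117 RPM in WT posterior ECs and at 298 and 333 in stabilized ones, and at 46.2 and 62.0 against 167 and 190 in the anterior lobe. In each lobe both stabilized libraries were above both WT libraries. The changes were 1.65 on the log2 scale in the posterior lobe (SE 0.38, edgeR adjusted p = 0.0510) and 1.72 in the anterior lobe (SE 0.38, edgeR adjusted p = 0.0951), neither past the threshold. Without the anterior library of mixed label the anterior change was called (log2 1.54), as it was without the other stabilized library (log2 1.90). DESeq2 called the posterior and the anterior change (adjusted p of 0.00120 and 0.00136). EdgeR called both with no filter on low counts (adjusted p of 1.86e-05 and 1.28e-05) and with the replicate block (0.0220 and 0.0313).

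The remaining genes gave smaller values in posterior ECs. Heph was at 56.6 and 43.8 in WT and 21.9 and 27.5 in stabilized libraries, lower in both (log2 -0.78, edgeR adjusted p = 0.421). Trf was at 39.1 and 41.4 against 30.6 and 34.6. Hfe (49.7 and 5.81 against 44.8 and 40.5) and Slc11a2 (7.80 and 9.29 against 10.3 and 14.9) did not pass the test, and Hfe was called without WT replicate 1 (log2 3.02, adjusted p = 0.0231).

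Markers moved in the same libraries. The 6 barrier genes of brain ECs summed to 55.4 and 81.9 RPM in WT posterior ECs and to 2212 and 2366 in stabilized ones, with 5 of 6 called higher. The 10 microglia and macrophage markers summed to 63.0 and 76.1 in WT libraries and to 621 and 847 after stabilization, with 4 of 10 called higher and none of the 10 at 0 in both libraries of a genotype. The 10 endothelial markers summed to 13257 and 14177 in WT and to 5777 and 6213 in stabilized libraries, with 2 of 10 called lower. Mural markers went from 546 and 666 to 264 and 347 (1 of 8 called lower), and with none called, pituicyte markers (5 genes) from 208 and 391 to 577 and 586, fibroblast markers from 50.9 and 63.6 to 11.6 and 20.6 and neuron markers from 40.7 and 72.8 to 14.9 and 19.96. Choroid plexus epithelium markers went from 68.7 and 73.7 to 1605 and 1945, with none of 7 called by edgeR, and oligodendrocyte markers from 39.8 and 107.6 to 1700 and 1716, with 1 of 7 tested called. Of the epithelium, oligodendrocyte and pituicyte lists, Kcnj13, Otx2 and Rax were at 0 (rounded reads) in both WT libraries. Kcnj13, Rax and Mag were at 0 in both stabilized ones. Macrophages store and export iron and express Slc40a1 and Fth1. The part of these cells in the result was not tested, and in bulk libraries a change in the number of cells of a type and a change in RNA per cell cannot be told apart.

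In anterior pituitary ECs no iron gene was called by edgeR, beside 0.458% of all genes, with 2 of the 9 at an unadjusted p under 0.05 and 1 called by DESeq2. Slc40a1 was at 5.71 and 4.17 in WT and at 6.23 and 8.47 in stabilized ECs (log2 0.57, edgeR adjusted p = 0.822), both stabilized values slightly above both WT values. Fth1 was at 481 and 437 against 670.0 and 1039 (log2 0.90, edgeR adjusted p = 0.607). Tfrc, at 15.6 and 2.25 against 13.9 and 13.8, overlapped, and was called at log2 2.63 (edgeR adjusted p = 0.0139) without WT replicate 1. Without the library of mixed label the log2 changes were 0.25 for Slc40a1 and 0.47 for Fth1. The microglia and macrophage markers stood at 167 and 179 in WT and at 533 and 812 in stabilized anterior libraries, with 2 of 10 called, or 4 of 10 without the library of mixed label. The barrier genes went from 70.3 and 91.9 to 274 and 481, with 3 of 6 called, or 5 of 6 without that library. Choroid plexus epithelium markers went from 3.81 and 9.08 to 244 and 385 with 0 of 7 called (1 without that library), and oligodendrocyte markers from 310.1 and 357 to 636 and 690 with 0 called. Of these lists Kcnj13, Otx2 and Mobp were at 0 (rounded reads) in both WT libraries, and Kcnj13, Otx2 and Mog in both stabilized ones. Mural markers went from 878 and 1012 to 1038 and 1266, and astrocyte markers from 565 and 606 to 365 and 447. The part of any of these in the values of the iron genes was not tested.

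In cerebellum ECs, where the barrier genes summed to 8844 to 10731 in both genotypes, no iron gene was called by edgeR or DESeq2, beside 0.648% of all genes called by edgeR, and 2 of the 9 had an unadjusted p under 0.05. Slc40a1 was at 380.7 and 449.8 in WT and at 901 and 553 in stabilized ECs (log2 0.79, edgeR adjusted p = 0.549). Tfrc was at 733 and 690.4 against 1037 and 1052. For both genes the stabilized libraries were above the WT ones by less than the test required. Heph was lower in both stabilized libraries, at 13.2 and 11.7 against 26.6 and 21.6 (log2 -0.94, edgeR adjusted p = 0.451), and Trf was too, at 1.06 and 6.001 against 8.34 and 12.4 (log2 -1.54, edgeR adjusted p = 0.498). Without stabilized replicate 2 Trf was called, at log2 -3.34 (edgeR adjusted p = 0.0171).

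**Figure D2:**
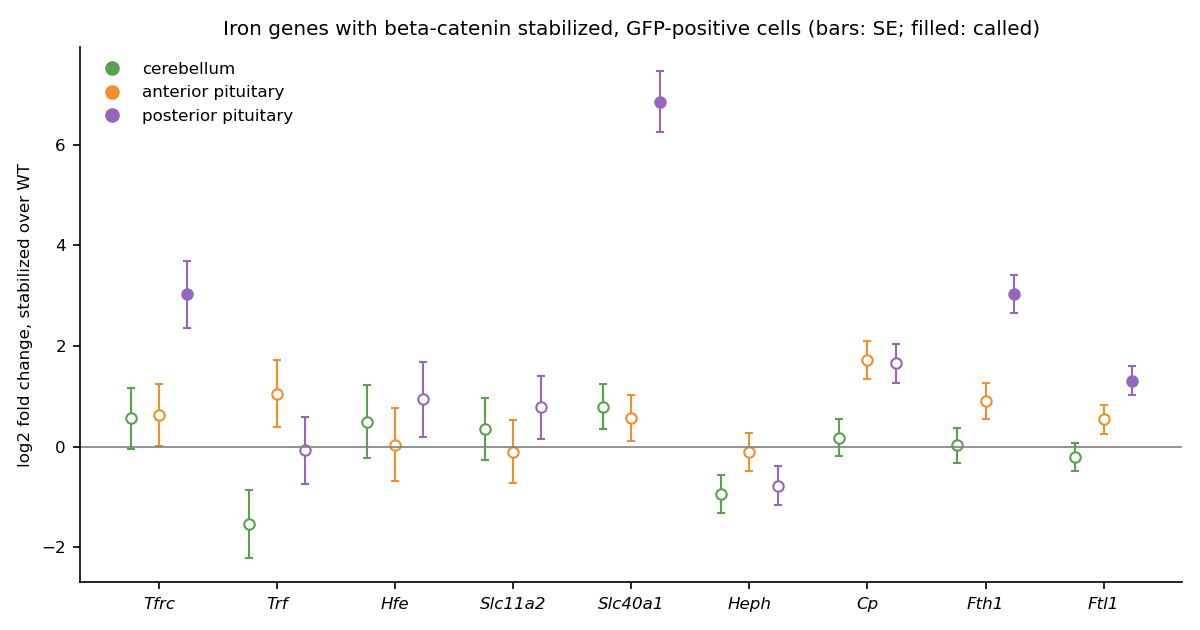
Log2 fold change of each iron gene, stabilized over WT, in GFP-positive ECs of the 3 sorted tissues (edgeR, 2 libraries a group). Bars are SE and filled points are called. The 4 filled points, Tfrc, Slc40a1, Fth1 and Ftl1, all belong to the posterior pituitary, with Slc40a1 at 6.86.

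Whether the changes differed between tissues was tested by an interaction term. The Slc40a1 change was larger in the posterior than in the anterior pituitary by 6.28 on the log2 scale (SE 0.73, edgeR adjusted p = 0.00335), and larger than in the cerebellum by 6.07 (SE 0.71, edgeR adjusted p = 0.00125). These differences were 8.44 and 8.22 without WT posterior replicate 1, and 5.65 and 5.43 without replicate 2. Without the library of mixed label the first difference was 6.64 and still called. With the length offset that difference was 5.84 (edgeR adjusted p = 0.0935), and with these groups alone it was 6.35 (edgeR adjusted p = 0.0700). The Fth1 change exceeded that in the cerebellum by 3.01 (SE 0.51, edgeR adjusted p = 0.0171). Its difference from the anterior lobe was not called by edgeR with all libraries in the fit, but was 2.60 (adjusted p = 0.00235) without the library of mixed label and 2.39 (adjusted p = 0.0207) without WT posterior replicate 1. It was called by DESeq2 too (log2 2.15, adjusted p = 0.00111) and with no filter on low counts (log2 2.15, adjusted p = 2.81e-05). DESeq2 also called the differences of Tfrc (log2 2.46, adjusted p = 0.0436) and Ftl1 (log2 1.504, adjusted p = 0.00787) between posterior pituitary and cerebellum. With no filter on low counts edgeR called both of these (adjusted p = 2.37e-06 and 0.0171) and Cp (log2 1.49, adjusted p = 0.0317), and it called Ftl1 without WT posterior replicate 1 (log2 1.92, adjusted p = 0.0155). The Tfrc difference between the lobes was called without WT anterior replicate 2 (log2 3.22, adjusted p = 0.0103) and with no filter (log2 2.42, adjusted p = 1.43e-05). Of all genes 0.128% differed between the lobes and 0.927% between posterior pituitary and cerebellum. These differences share the posterior libraries. Between anterior pituitary and cerebellum no iron gene was called by edgeR or DESeq2, beside 0.519% of all genes called by edgeR, and 2 had an unadjusted p under 0.05. Without stabilized cerebellum replicate 2, Cp (log2 2.43, edgeR adjusted p = 0.00936) and Trf (log2 4.39, edgeR adjusted p = 0.00736) were called there, and both were also called between posterior pituitary and cerebellum (log2 2.35 and 3.26, adjusted p = 0.0118 and 0.0417). Between anterior pituitary and cerebellum Cp was called with no filter on low counts as well (adjusted p = 0.0283).

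In the GFP-negative cells of the same mice edgeR called no iron gene with stabilization when all libraries were in the fit, beside 0.76% of all genes in cerebellum, 0.0408% in anterior and 0.133% in posterior pituitary. An unadjusted p under 0.05 was reached by 1, 0 and 3 of the 9, and DESeq2 called 1, 0 and 1. The cerebellum gene was Fth1, at 419.5 and 786 RPM in WT and 1455 and 3482 in stabilized libraries (log2 2.10, SE 0.54, edgeR adjusted p = 0.127). EdgeR called it without stabilized replicate 1 (log2 2.68, adjusted p = 0.00711), without WT replicate 2 (log2 2.86, adjusted p = 0.0197) and with no filter on low counts (adjusted p = 1.17e-05). The posterior gene was Trf, at 10.2 and 2.77 against 48.2 and 33.5 (log2 3.03, SE 0.83, edgeR adjusted p = 0.199). It was called by edgeR without either stabilized library (log2 2.82 and 3.21, adjusted p = 0.0240 and 0.00630), without WT replicate 1 (log2 4.36, adjusted p = 0.0131) and with no filter (adjusted p = 1.98e-09). Without WT replicate 1 Cp was called there too (log2 2.55, adjusted p = 0.0308). Neither pair of groups overlapped. The summed neuron markers (7 genes) of the cerebellum GFP-negative libraries went from 843 and 929 to 2755 and 3830.4 with stabilization, and 2 were called higher. In the posterior ones mural markers went from 22.1 and 43.9 to 115 and 301 with 3 of 8 called higher, fibroblast markers (5 genes) from 233 and 288 to 489.8 and 886 with 0 called, and erythroid markers from 1.96 and 116 to 829 and 1901 with 0 called. Their part in the Fth1 and Trf values was not tested. Slc40a1 was at 0.839 and 0.0544 against 6.09 and 3.50 in posterior GFP-negative cells, below the 63.6 and 51.0 in the ECs of the same mice. Among WT GFP-negative cells, Trf was highest in cerebellum (190 and 651, against 22.8 and 5.80 in the anterior lobe and 10.2 and 2.77 in the posterior lobe), called against both lobes (log2 5.31 and 6.34, SE 0.92 and 0.96, edgeR adjusted p = 0.00258 and 0.00101). Oligodendrocyte markers summed to 4456 and 15396 there, 51.2 and 64.9 in the anterior and 26.2 and 72.5 in the posterior lobe, with 8 of 8 called higher over each, and their part in the Trf difference was not tested. Leaving out 1 library of the groups compared gave 3.88 to 6.61 over the anterior lobe and 4.90 to 7.66 over the posterior lobe, the lowest of each without cerebellum replicate 2 and the highest without pituitary replicate 1. Tfrc was called against the anterior lobe (log2 2.31, SE 0.45, edgeR adjusted p = 0.00604). Of all genes, 8.77% and 9.88% were called in these comparisons. Between the lobes no iron gene was called by edgeR or DESeq2 with all libraries in the fit, beside 1.67% of all genes called by edgeR, and 3 had an unadjusted p under 0.05. Without WT posterior GFP-negative replicate 1 edgeR called Ftl1 higher (log2 1.73, adjusted p = 0.0402) and Tfrc lower (log2 -1.60, adjusted p = 0.0441) in the anterior lobe. Without that library it also called Heph (log2 8.04, adjusted p = 0.0121), Ftl1 (log2 1.67, adjusted p = 0.0242) and Cp (log2 1.98, adjusted p = 0.0366) higher in cerebellum than in the posterior lobe, and without replicate 2 Tfrc (log2 2.02, adjusted p = 0.0175). DESeq2 called Slc40a1 in that comparison (log2 3.91, adjusted p = 0.0431).

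The RiboTag libraries measured the same genes on ribosomes of cells with Cre history. In WT cortex Slc40a1, Hfe and Cp were enriched in bound over input RNA, 3 of the 9 genes beside 7.46% of all genes called higher and 11.6% called in either direction. The median log2 change of all genes was -0.33 here and -0.23 with RLE scaling, and the split of calls went from 1361 higher and 763 lower to 1434 and 503. Slc40a1 was at 75.3 and 34.0 RPM bound and 4.67 and 7.89 in input (log2 2.84, SE 0.49, edgeR adjusted p = 0.00146). Hfe was at 23.9 and 9.12 bound and 2.45 and 0.901 in input (log2 2.99, SE 0.43, edgeR adjusted p = 0.000381), a call lost with only these groups in the fit (log2 3.34, adjusted p = 0.0502). Cp was at 128 and 62.6 bound and 10.3 and 12.9 in input (log2 2.76, SE 0.31, edgeR adjusted p = 4.60e-05). The fractions were well separated for all 3 genes. Tfrc overlapped, at 92.9 and 63.4 bound and 60.4 and 72.5 in input. Ftl1 was called without bound replicate 2 (log2 1.07, edgeR adjusted p = 0.0106). Endothelial markers were higher in bound RNA (10 of 10 called), and so were microglia and macrophage markers (9 of 10 called, 3875 and 6176 bound against 194 and 200 in input), whose part in these enrichments was not tested. With the length offset Slc40a1 was no longer called (log2 1.83, adjusted p = 0.271). Without bound replicate 2 the log2 changes were 3.59 for Slc40a1, 3.81 for Hfe and 3.46 for Cp, and without an input library they reached 3.54 for Slc40a1 (replicate 2) and 4.25 for Hfe (replicate 1).

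In WT choroid plexus both storage genes were lower in bound than in input RNA, with Trf and Hfe lower beside them, 4 of the 9 genes against 6.64% of all genes called lower and 15.3% called in either direction. Fth1 was at 183 and 216 bound and 570.3 and 613 in input (log2 -2.01, SE 0.17, edgeR adjusted p = 1.18e-05). Ftl1 was at 88.7 and 152 bound and 217 and 217 in input (log2 -1.28, SE 0.26, edgeR adjusted p = 0.00403), and fell by 0.94, under 2-fold, without bound replicate 1. Both bound libraries lay below both inputs. Trf, which choroid plexus epithelium makes, was at 163 and 190 bound and 257 and 350 in input (log2 -1.22, SE 0.20, edgeR adjusted p = 0.000948), and fell by 0.63 (adjusted p = 0.197) with the length offset. Hfe was at 32.0 and 38.3 against 62.5 and 64.7 (log2 -1.29, SE 0.39, edgeR adjusted p = 0.0324), a call lost without any 1 of the 4 libraries. Epithelial markers summed to 115377 and 125211 RPM in these inputs and to 40807 and 41494 in bound RNA. The bound fraction thus kept many of them. Endothelial markers summed to 167 to 174 in input and 1851 to 2337 in bound RNA, with 10 of 10 called higher. Microglia and macrophage markers summed to 91.1 to 93.7 in input and 537 to 705 in bound RNA. The part of these markers in the calls was not tested.

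Between tissues, WT bound RNA of cortex held more Tfrc, Slc40a1 and Fth1 and less Heph than that of choroid plexus, 4 of the 9 genes beside 29.7% of all genes. Microglia and macrophage markers (10 genes) summed to 3875 and 6176 RPM in cortex and 537 to 705 in choroid plexus, with 8 called higher and 2 lower, and epithelial markers (7 genes) to 7.21 to 22.4 against 40807 and 41494, with 7 called lower. Their part in the tissue differences was not tested. Tfrc was at 92.9 and 63.4 in cortex and 17.3 and 7.79 in choroid plexus (log2 2.63, SE 0.49, edgeR adjusted p = 0.00314). Slc40a1 was at 75.3 and 34.0 against 3.60 and 1.59 (log2 4.37, SE 0.57, edgeR adjusted p = 0.000486). Both exceeded choroid plexus in every library, as they exceeded the pituitary in sorted cerebellum ECs. Fth1 was at 464 and 449.9 against 183 and 216 (log2 1.20, SE 0.22, edgeR adjusted p = 0.00315). Heph was at 11.1 and 9.87 against 28.3 and 23.9 (log2 -1.31, SE 0.39, edgeR adjusted p = 0.0302). The call of Heph was lost without any 1 of the 4 libraries (log2 -1.30 to -1.50). The calls of Tfrc and Heph were lost with the length offset (log2 2.03 and -1.68, edgeR adjusted p = 0.0734 and 0.0545). Hfe was not called by edgeR with all libraries in the fit, but was called lower in cortex by DESeq2 (log2 -1.21, adjusted p = 0.0495), and by edgeR with no filter on low counts (log2 -1.23, adjusted p = 0.0338) and without cortex bound replicate 1 (log2 -1.86, adjusted p = 0.0152). The call of Fth1 was lost without choroid plexus bound replicate 1 (log2 0.97).

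The inputs of the 2 tissues differed in 7 of the 9 genes, where 52.7% of all genes were called. Epithelial markers summed to 13.6 to 18.5 RPM in WT cortex input and 115377 to 125211 in choroid plexus input. Oligodendrocyte markers summed to 4789 to 6098 against 116 to 129, and neuron markers to 4524 to 4863 against 56.2 to 174. Astrocyte markers summed to 5050 to 5580 against 109 to 201. The part of these cells in the input differences was not tested. Cortex input was higher in Tfrc (60.4 and 72.5 against 11.8 and 13.5) and Slc40a1 (4.67 and 7.89 against 1.04 and 0.456), and lower in Hfe (2.45 and 0.901 against 62.5 and 64.7), Cp, Heph, Ftl1 and Trf. The falls ranged from log2 -1.22 for Trf to -5.68 for Hfe. Trf was under 2-fold with the length offset (log2 -0.88) and without choroid plexus input replicate 2 (log2 -0.99). Hfe was at -6.61 and -5.09 without cortex replicate 1 and 2, and Slc40a1 went from 2.63 to 3.31 without choroid plexus replicate 1.

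With beta-catenin stabilized, choroid plexus bound RNA gained Slc40a1, the 1 iron gene called there beside 0.852% of all genes (0.656% higher). Slc40a1 was at 3.60 and 1.59 RPM in WT and 15.3 and 30.3 in stabilized bound libraries. Both stabilized libraries were above both WT ones, on 98 and 194 reads against 27 and 12. The change was 7.75-fold (log2 2.95, SE 0.55, edgeR adjusted p = 0.0476), and the call held in 6 of 11 settings. It was lost with the length offset (log2 4.86, adjusted p = 0.0919), with these groups fitted alone (adjusted p = 0.0687), without stabilized replicate 2 (log2 2.34, adjusted p = 0.0844) and without WT replicate 2 (log2 2.52, adjusted p = 0.0928), and was 3.67 without WT replicate 1. Tfrc was at 17.3 and 7.79 in WT and 29.4 and 68.5 in stabilized bound RNA (log2 1.79, edgeR adjusted p = 0.136), and Cp at 91.6 and 120.1 against 295 and 283 (log2 1.25, edgeR adjusted p = 0.139). Neither gene's groups overlapped, and DESeq2 called both, as did edgeR with no filter on low counts. EdgeR also called Tfrc without stabilized replicate 1 (log2 2.38, adjusted p = 0.0295) and Cp with these groups fitted alone (log2 1.34, adjusted p = 0.0223). Barrier genes summed to 490.2 and 504 in WT and 2021 and 2062 in stabilized bound RNA (3 of 6 called), and macrophage markers to 537 and 705 against 986 and 1151 (0 of 10 called by edgeR). Endothelial markers went from 1851 and 2337 to 2936 and 3487 (0 of 10 called), epithelial markers from 40807 and 41494 to 24692 and 29774 (0 of 7 called), and oligodendrocyte markers from 153 and 193 to 646 and 647 (1 of 8 called). Mog, of the oligodendrocyte list, was at 0 (rounded reads) in both stabilized libraries. The part of these markers in the Slc40a1 call was not tested. In choroid plexus input no iron gene was called by edgeR or DESeq2 (0 with an unadjusted p under 0.05, beside 0.106% of all genes called by edgeR), and Slc40a1 there was at 1.04 and 0.456 against 2.25 and 1.16.

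In cortex bound RNA no iron gene was called by edgeR, beside 6.32% of all genes, with 4 of the 9 at an unadjusted p under 0.05 and 1 called by DESeq2, Slc11a2. Tfrc was at 92.9 and 63.4 in WT and 192 and 165 in stabilized libraries (log2 1.18, edgeR adjusted p = 0.157). It was called with only these groups in the fit (log2 1.22, adjusted p = 0.0332) and with no filter on low counts (log2 1.19, adjusted p = 0.00386). Slc11a2 was at 28.3 and 15.95 against 6.66 and 6.18 (log2 -1.79, edgeR adjusted p = 0.0651). EdgeR called it with no filter (log2 -1.78, adjusted p = 0.0443). Both pairs were separate. Without WT replicate 1 Cp was called (log2 1.41, edgeR adjusted p = 0.0246). Endothelial markers summed to 719 and 1709 in WT and 2034 and 2124 in stabilized cortex bound libraries, with 3 of 10 called higher, barrier genes to 1081 and 2976 against 3952 and 4084 with 2 of 6 called higher, and astrocyte markers to 2901 and 4177 against 1029 and 1663 with 0 of 6 called. Neuron markers went from 2319 and 2586 to 1087 and 1174 with 2 of 7 called lower, and erythroid ones from 211 and 282 to 48.8 and 55.02 with 1 of 5 called lower. Their part in the Tfrc and Slc11a2 values was not tested. Cortex input gave 1 call, Ftl1, at 52.2 and 56.8 in WT and 107 and 105 in stabilized libraries (log2 1.11, SE 0.11, edgeR adjusted p = 0.000553, 11.8% of all genes called, 8.44% higher). Its processed copies took 295 to 684 reads of Ftl2-ps in the WT cortex libraries and 0 in the other RiboTag libraries, and with the copies added the change was 0.65, under 2-fold. Hfe was called in input without WT replicate 1 (log2 1.47, edgeR adjusted p = 0.00874), and Slc11a2 with the length offset (log2 -1.75, adjusted p = 0.00789).

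**Figure D3:**
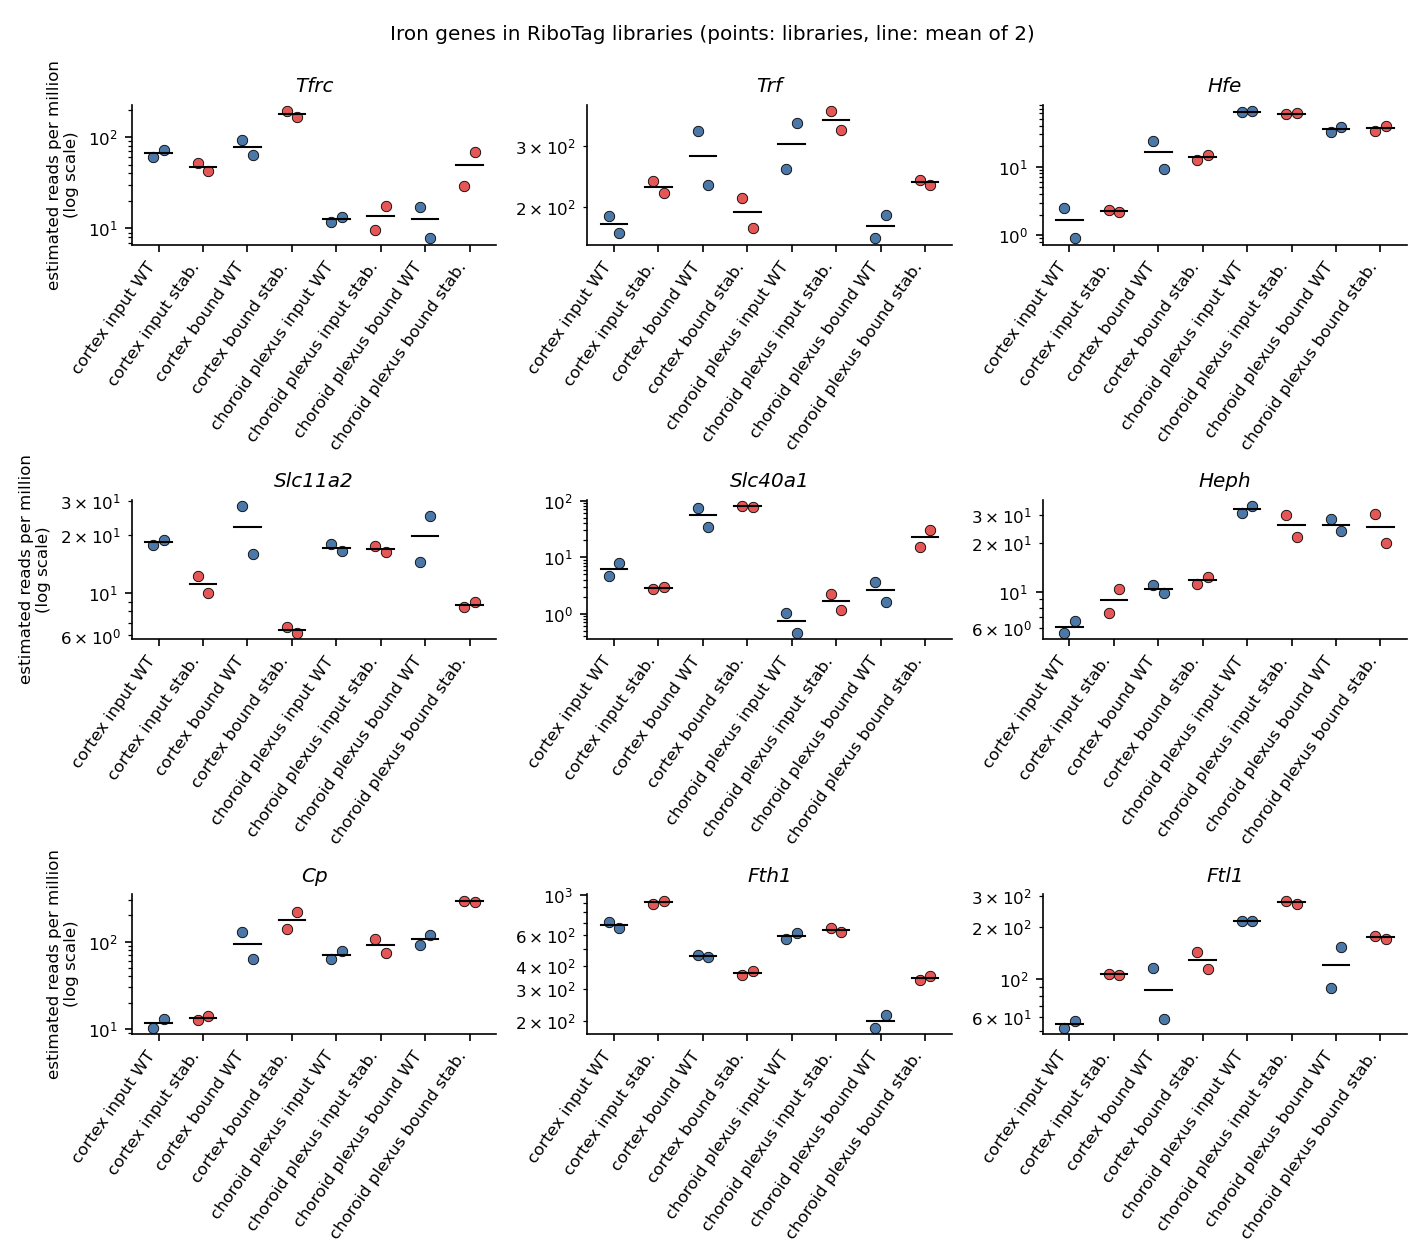
RPM (estimated reads, log axis) of the 9 iron genes in input and ribosome-bound RNA of cortex and choroid plexus, WT (blue) and stabilized (red). Points are libraries and the line is the mean of 2. In bound choroid plexus RNA Slc40a1 lies at 3.60 and 1.59 in WT and at 15.3 and 30.3 in stabilized mice.

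The IRE-bearing transcripts shown above were followed as a share of each gene's RNA. In WT cerebellum ECs they made up 64.2% ± 8.92 (SD, n = 2) of Tfrc by TPM and 90.1% ± 2.06 by estimated reads. For Slc40a1 they were 22.5% ± 3.63 by TPM but 96.4% ± 0.760 by reads, because the short transcript Slc40a1-207 took 294 TPM from 528 reads in replicate 1, where the main transcript Slc40a1-201 took 68.0 TPM from 11383. Ftl1 gave 53.1% ± 11.6 by TPM and 68.5% ± 9.96 by reads, and Fth1 100% by both, as 1 Fth1 transcript of 9 annotated is in the tables. These shares are not of protein-coding transcripts alone. In replicate 1 the Ftl1 share held 6056 reads of Ftl1-202, annotated as nonsense-mediated decay, and 48.1 of the coding Ftl1-201. The Tfrc share held 15015 reads of the coding Tfrc-201 and 6655 of the retained intron Tfrc-204. Isoform shares from short single-end reads are estimates. In stabilized cerebellum ECs the shares by reads were 96.7% for Tfrc, 96.8% for Slc40a1 and 65.8% for Ftl1, with both Tfrc libraries (99.9% and 93.4%) above both WT ones (88.6% and 91.6%) and the others overlapping WT.

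**Figure D4:**
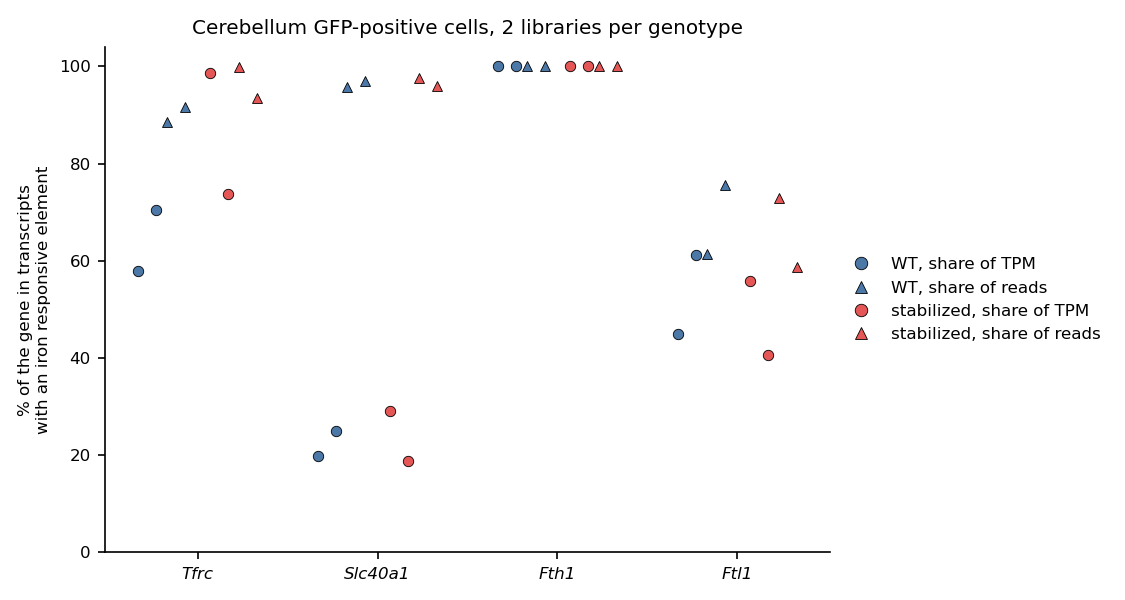
Share (%) of each gene's TPM (circles) or estimated reads (triangles) in transcripts that hold an IRE, in WT (blue) and stabilized (red) cerebellum ECs, 1 point a library. Slc40a1 shows the gap between the scales, 22.5% of TPM and 96.4% of reads in WT.

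ATAC-seq measured which regions near these genes were accessible in ECs. A region is a merged peak of any library past a fold enrichment of 2 and a -log10 q of 2. Promoters, within 1000 bases of the start, held a peak in all 12 libraries for Tfrc (fold enrichment 10.7 to 20.3), Slc40a1 (13.2 to 21.96), Slc11a2 (9.73 to 19.6), Fth1 (13.9 to 18.4) and Ftl1 (8.49 to 16.6). The Slc40a1 promoter was at 17.9 and 17.7 in WT posterior ECs, the libraries where its RNA came to 28 and 2 reads. Trf held a peak in 11 libraries, Hfe in 10, Heph in 3 and Cp in 0 of 12. The libraries without an Hfe peak were the WT cerebellum ones, and both stabilized cerebellum libraries had it at 7.29 and 4.63.

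Within 100 kb of the 9 genes lay 138 regions. Those present in both stabilized and neither WT library numbered 14 in cerebellum, 12 in anterior and 15 in posterior pituitary, and those lost numbered 1, 0 and 0. Of the regions near the 9 genes found in each tissue (94, 110 and 86), 14.9%, 10.9% and 17.4% were gained. Of all regions of the genome found in each tissue, 12.8%, 5.13% and 17.8% were gained, and 1.73%, 3.44% and 1.3% were lost. The number of peaks called in posterior libraries was 26400 and 25684 in WT mice and 36356 and 51661 after stabilization. It was 31795 and 29162 against 43412 and 40751 in cerebellum, and 45518 and 60240 against 48942 and 52393 in the anterior lobe. The part of these totals in the counts of regions was not tested. Near Slc40a1 the WT posterior libraries held the promoter peak and no other region, the WT anterior libraries 5 and 6 others and the WT cerebellum libraries 4 and 3, while the stabilized libraries held 2 and 3 in the posterior lobe, 6 and 6 in the anterior lobe and 10 and 9 in cerebellum. Near Fth1 the regions outside the promoter numbered 4 and 5 in WT posterior libraries and 11 and 16 after stabilization, 11 and 16 against 18 and 23 in the anterior lobe, and 11 and 7 against 16 and 12 in cerebellum. Near Tfrc they numbered 5 and 5 against 8 and 10 in the posterior lobe, 8 and 10 against 11 and 10 in the anterior lobe and 9 and 7 against 13 and 12 in cerebellum.

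Of the 138 regions 6 were found in WT cerebellum and in no WT pituitary library, 4 near Tfrc and 2 near Fth1. For each of these genes 1 such region was gained in both stabilized lobes. Over the genome 3.23% of regions had this cerebellum pattern, and 24.2% and 32.7% of those were gained in stabilized anterior and posterior ECs. The Tfrc region lies upstream in an intron of Zdhhc19, with fold enrichment 8.60 and 8.03 in WT cerebellum, 4.15 and 5.98 in stabilized anterior and 4.50 and 4.45 in stabilized posterior ECs. The Fth1 region lies upstream between genes, at 7.63 and 3.31, 3.62 and 4.73, and 3.89 and 4.88 in the same libraries. Near Slc40a1 the region gained in posterior ECs lies past the end of the gene, at 5.10 and 5.22, and was also present in WT cerebellum (10.1 and 8.16) and WT anterior ECs (7.27 and 10.3). A region in an intron of Cp was gained in posterior ECs too, at 6.54 and 4.87, with 4.60 and 4.47 in WT cerebellum and 4.15 and 4.83 in WT anterior ECs.

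The 201 bases around the summits of these regions are printed on the plus strand of GRCm38, with 2 further gained regions that hold a match to ATCAAAG or TTCAAAG, the letters bound by the TCF and LEF partners of beta-catenin. Capitals mark a match, here read on the other strand.
Tfrc upstream, chr16:32513455-32513655, gained in both lobes: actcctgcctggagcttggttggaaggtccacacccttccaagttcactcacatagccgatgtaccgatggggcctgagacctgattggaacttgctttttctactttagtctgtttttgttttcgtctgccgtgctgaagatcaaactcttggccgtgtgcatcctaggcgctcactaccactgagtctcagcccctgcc
Fth1 upstream, chr19:9947080-9947280, gained in both lobes: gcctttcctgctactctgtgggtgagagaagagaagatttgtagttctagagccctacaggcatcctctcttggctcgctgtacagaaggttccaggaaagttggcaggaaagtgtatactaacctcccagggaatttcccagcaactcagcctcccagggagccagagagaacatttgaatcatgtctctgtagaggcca
Slc40a1 downstream, chr1:45868684-45868884, gained in posterior lobe: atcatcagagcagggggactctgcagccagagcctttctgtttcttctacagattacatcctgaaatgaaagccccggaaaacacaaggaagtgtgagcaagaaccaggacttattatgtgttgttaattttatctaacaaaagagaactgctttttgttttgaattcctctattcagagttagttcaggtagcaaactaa
Cp intron, chr3:19960799-19960999, gained in posterior lobe: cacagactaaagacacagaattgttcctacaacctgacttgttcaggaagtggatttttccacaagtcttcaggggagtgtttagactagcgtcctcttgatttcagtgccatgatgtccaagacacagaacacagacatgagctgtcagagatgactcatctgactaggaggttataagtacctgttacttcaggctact
Fth1 upstream with match, chr19:9960845-9961045, gained in anterior lobe: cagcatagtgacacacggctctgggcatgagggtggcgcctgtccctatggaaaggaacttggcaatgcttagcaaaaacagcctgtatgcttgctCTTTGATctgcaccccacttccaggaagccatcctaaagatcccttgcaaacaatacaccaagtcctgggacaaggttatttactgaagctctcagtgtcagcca
Ftl1 upstream with match, chr7:45538713-45538913, gained in posterior lobe: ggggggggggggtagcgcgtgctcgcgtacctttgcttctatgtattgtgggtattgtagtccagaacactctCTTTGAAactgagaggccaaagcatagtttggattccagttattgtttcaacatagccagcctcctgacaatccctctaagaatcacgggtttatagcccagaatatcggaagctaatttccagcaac
The first 4 hold neither word, and the last 2 hold 1 match each. Searched on both strands, the words lay within this window in 7.88% of all 66740 regions and in 12.8%, 22.2% and 15.5% of regions gained in cerebellum, anterior and posterior ECs. Near the iron genes 1 of 14, 1 of 12 and 1 of 15 gained regions held one. A match is a run of letters, not a bound site.

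**Figure D5:**
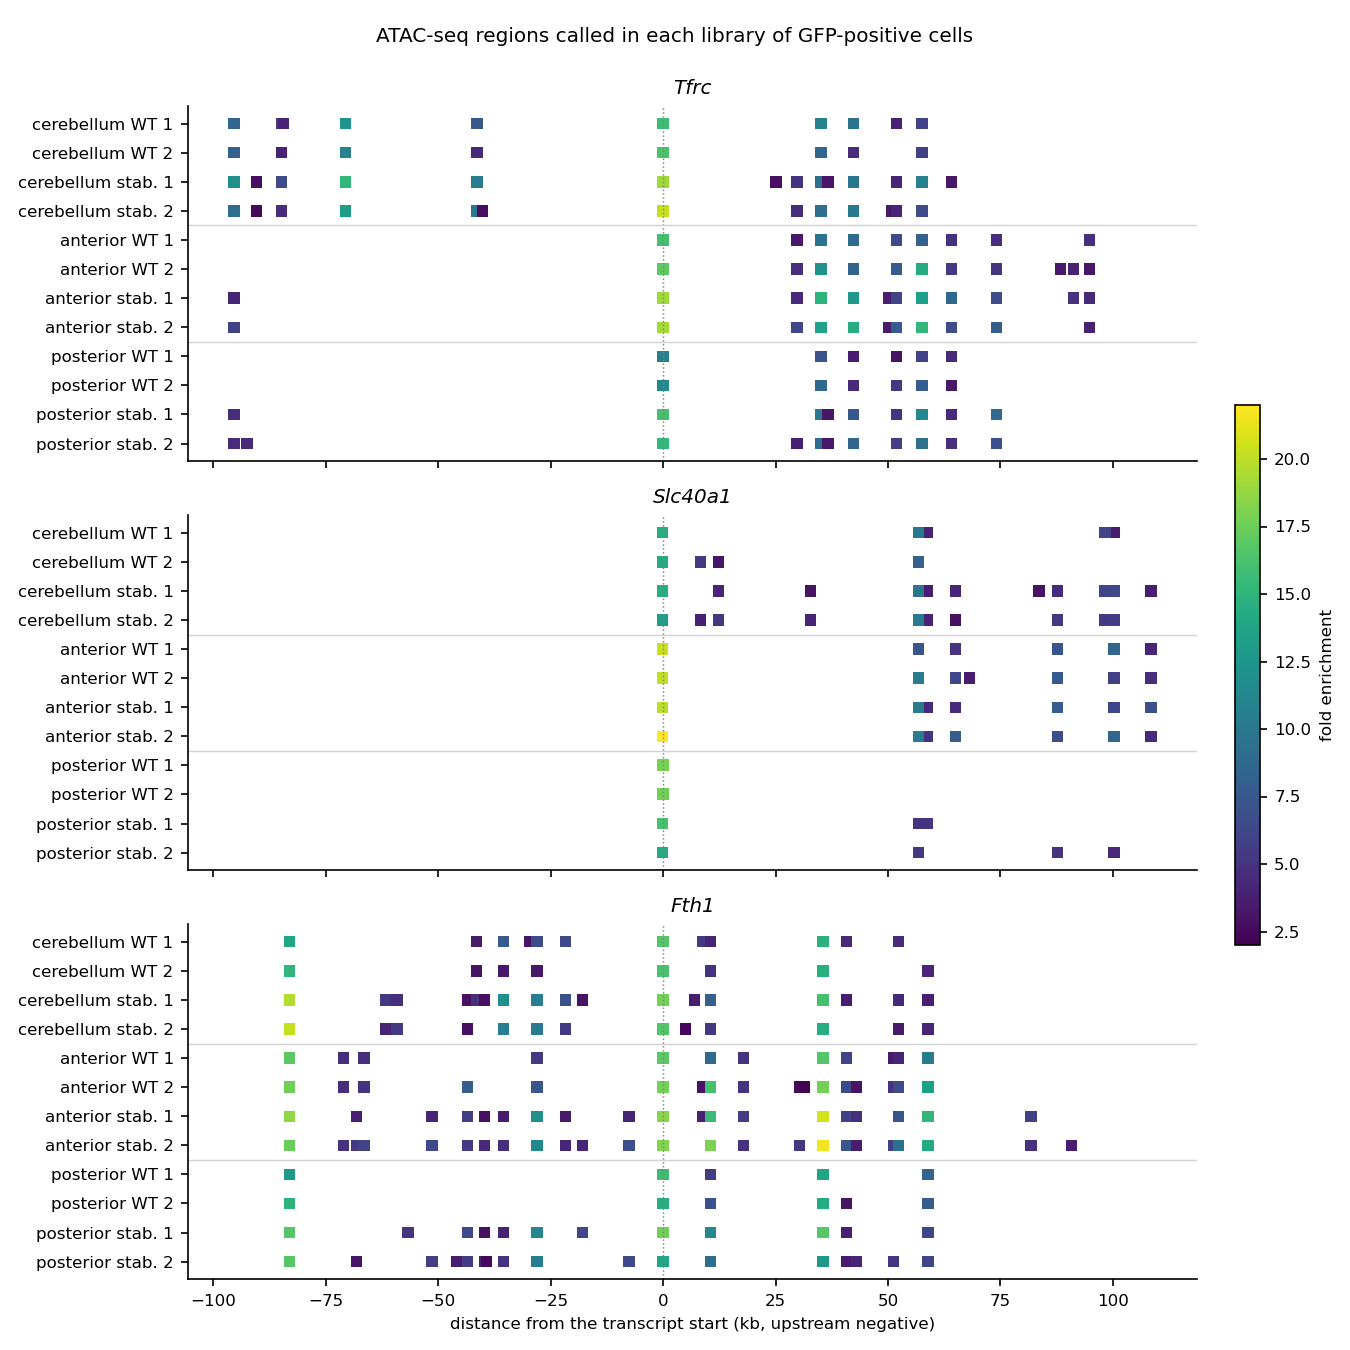
Regions called by ATAC-seq within 100 kb of Tfrc, Slc40a1 and Fth1 in each of the 12 EC libraries, by distance of the summit from the transcript start (kb) and coloured by fold enrichment. WT posterior libraries show the Slc40a1 promoter at 17.9 and 17.7 and no other region, and the stabilized ones hold 2 and 3 others, of which the shared one is at 5.10 and 5.22.

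Of 52 further genes of iron handling (importers, endosomal reductases, sensors and the hepcidin axis, ferritin turnover, mitochondrial iron and heme), 43 were tested in sorted ECs. Between WT cerebellum and anterior pituitary ECs 7 were higher and 1 lower in cerebellum, where 3% and 2.26% of all genes were. Against posterior pituitary ECs 6 were higher and 2 lower, where 2.3% and 2.1% of all genes were. Slc39a8, a plasma membrane importer of iron, zinc and manganese, was at 344 and 256 RPM in cerebellum and 4.57 and 6.82 in anterior ECs (log2 5.82, SE 0.37, edgeR adjusted p = 1.88e-06). Flvcr2, a transporter of the heme exporter family, was at 95.7 and 116 in cerebellum and at 0 in all 4 WT pituitary EC libraries, at least 1051-fold higher than the anterior and 609-fold than the posterior lobe against a floor of 3 reads per library. Steap4, a metalloreductase, ran the other way, at 0.660 and 2.60 in cerebellum, 204 and 238 in anterior and 44.1 and 103 in posterior ECs.

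With stabilization 3 of these 43 genes rose and 0 fell in posterior ECs, and 3 rose and 0 fell in anterior ECs, where 1.25% of all genes rose and 0.541% fell in the posterior lobe and 0.441% rose and 0.0167% fell in the anterior lobe. An unadjusted p under 0.05 was reached by 10 and 5 of them, and DESeq2 called 6 and 3. Slc39a8 went from 23.4 and 21.8 to 207 and 231 RPM in posterior ECs (log2 3.51, SE 0.33, edgeR adjusted p = 0.000148), and at 4.57 and 6.82 against 22.6 and 35.8 in the anterior lobe (log2 2.37, SE 0.32, edgeR adjusted p = 0.00429). Flvcr2 rose from 0 and 0 to 10.1 and 15.8 in posterior ECs, at least 74.3-fold, and to 3.02 and 13.4 in anterior ECs, at least 81.5-fold, or at least 29.9-fold from the first library alone, the second being the one of mixed label. Abcg2, a BBB efflux pump that also exports porphyrins, was at 492 and 511 against 1021 and 919 in posterior ECs (log2 1.18, SE 0.25, edgeR adjusted p = 0.0370). Lrp1, a lipoprotein receptor that takes up the heme carrier hemopexin, was at 9.75 and 13.2 against 66.2 and 62.6 in anterior ECs (log2 2.48, SE 0.42, edgeR adjusted p = 0.0211). In WT anterior GFP-negative cells it was at 149 and 128. Microglia and macrophage markers summed to 167 to 179 in the WT and 533 to 812 in the stabilized anterior EC libraries. The part of such cells in the Lrp1 rise was not tested. Without the library of mixed label the anterior changes were 1.91 for Slc39a8 (adjusted p = 0.00136) and 2.45 for Lrp1 (adjusted p = 0.00575), both called. In bound choroid plexus RNA 1 of 44 rose beside 0.656% of all genes, Abcg2, at 53.7 and 55.6 in WT and 306 and 259 in stabilized libraries (log2 2.17, SE 0.30, edgeR adjusted p = 0.0121). In cerebellum ECs 2 of 43 fell beside 0.581% of all genes, both low in either genotype. Bmp6 went from 1.14 and 5.99 to 0.0709 and 0, and Steap4 from 0.660 and 2.60 to 0.0355 and 0. In these libraries fibroblast markers summed to 26.8 to 31.9 in WT and 0.734 to 3.48 in stabilized mice. Mural markers summed to 2985 to 3587 and 2118 to 2427. The part of these markers in the 2 falls was not tested.

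The genes whose levels ran most like an iron gene over the 12 sorted group means were named by Pearson's r of log2(TPM + 1), among 8963 genes, as a description of points that share libraries and depth. For Slc40a1 they were Srarp (0.990), Slc22a8 (0.986) and Slc19a3 (0.983), and for Tfrc Ddc (0.951), Pdxk (0.936) and Wnt5a (0.934). Cp ran with Fn1 (0.951), Psmb3 (0.942) and Paqr5 (0.934), and Trf with Arhgef26 (0.887), Trmt2a (0.882) and Pygm (0.881). Ordered by level over the 12 sorted groups, 8 of 11 neighbouring groups overlapped for Tfrc and Slc40a1, 7 of 11 for Cp and 9 of 11 for Fth1, and all 11 for Hfe and Slc11a2.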

How the data were processed

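Per the study's methods and the submitters' processing notes, the authors quantified the single-end RNA-seq reads with Salmon 0.10.2 on Ensembl 92 transcripts of GRCm38 and deposited estimated counts and TPM (length-corrected abundance) for each transcript. Salmon detected the library type, strand included, by itself, and mappings against that type were left out. For ATAC-seq they aligned with Bowtie2 2.3.2 and deposited MACS2 2.1.1.20160309 peaks of each library, with fold enrichment as a ratio over background and -log10 q.

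Here estimated counts and TPM were summed per gene by the GENCODE M21 annotation, and RPM is the estimated count over the library total. The rounded sums went into edgeR 4.0.16 (quasi-likelihood test, TMM, filter on low counts, all groups of a kind in 1 fit, Benjamini-Hochberg adjustment over all genes), with a gene called at an adjusted p under 0.05 and at least 2-fold. SE is the log2 change over the square root of F. The code was tested on simulated data. Pseudogene copies can take ferritin reads. Alternatives were DESeq2 1.42.0, RLE scaling, no filter, only the groups compared, a transcript-length offset, a replicate block and leaving out each library, and after the data were seen, ferritin copies summed. Transcripts absent from the annotation took 0.0588 to 0.385% of reads. Peaks past a fold enrichment of 2 and a -log10 q of 2 were merged into 66740 regions.

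The iron genes were chosen, and the lists and tests set, with earlier results of these data known. All 9 are reported in each comparison they are called in. Other iron genes are named only among the 3 called with the largest rise or fall, and genes of like pattern are the 3 with the highest r among genes at 10 TPM or more in both replicates of a group. Those of Fth1 are not reported here. Sequences are from the GRCm38 genome and its annotation.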

Additional observations from a re-analysis of the deposited data

Results flagged for a closer look

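Effects of stabilization differed between tissues, by a test of the difference itself, for 2 of the iron genes by edgeR with all libraries in the fit. The log2 change of Slc40a1 in posterior pituitary ECs exceeded that in the anterior lobe by 6.28 and that in the cerebellum by 6.07. The log2 change of Fth1 in posterior pituitary ECs exceeded that in the cerebellum by 3.01. The call of Slc40a1 between the lobes was lost with the length offset (log2 difference 5.84, edgeR adjusted p = 0.0935). It was lost with only these groups in the fit too (log2 difference 6.35, edgeR adjusted p = 0.0700). DESeq2 called Tfrc and Ftl1 as well between posterior pituitary and cerebellum, and Fth1 between the lobes, and edgeR with no filter on low counts called these, Cp between posterior pituitary and cerebellum and between anterior pituitary and cerebellum, and Tfrc between the lobes. In the posterior lobe barrier genes and markers of microglia and macrophages, choroid plexus epithelium, oligodendrocytes and pituicytes rose in sum in the same libraries. Kcnj13 (choroid plexus epithelium), Mag (oligodendrocytes) and Rax (pituicytes) were at 0 (rounded reads) in both stabilized libraries. Endothelial, mural, fibroblast and neuron markers fell in sum. Their levels are given in the report, and the part of these markers was not tested. Groups of 2 libraries were too small to test for a single library that stands apart.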

How the results depend on the processing

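Of 45 calls of iron genes by edgeR, 24 held in every alternative run and 21 were lost in at least 1, and none reversed. With no filter on low counts 22 more values were called, with DESeq2 15 more, and with the length offset 15 were lost. Leaving out 1 library lost 23 of 192 calls and gained 33. The library left alone in its group was then assumed to vary like the others, and the filter could keep more genes (20114 against 17915 without the stabilized anterior library of mixed label). Over all genes DESeq2 called more than 1.5 times as many in 21 of 26 comparisons, and the length offset called fewer by more than 1.5 times in 18. In stabilized posterior ECs edgeR called 224 genes higher and 97 lower, DESeq2 757 and 348, and the length offset 130 and 33. The length offset moved the split of calls over all genes from 1361 higher and 763 lower to 1243 and 176 for bound over input in cortex, from 612 and 448 to 361 and 162 for stabilized bound cortex RNA, and from 1357 and 544 to 1602 and 1228 for stabilized cortex input. RLE scaling lost and gained no call of an iron gene. Causes were not tested.

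Counts of called iron genes moved as follows, with the range over leaving out each library. Bound against input gave 7 calls, 4 with the length offset. GFP-positive against GFP-negative cells gave 9, and 5 both with the length offset and with only the groups compared. Stabilized ECs gave 4, and 2 with each of these settings, with a range of 2 to 5. DESeq2 called 5 in posterior and 1 in anterior stabilized ECs. Cp was gained in both lobes with no filter and with the replicate block. Differences of the effect between tissues gave 3, 6 with DESeq2 and 9 with no filter, with a range of 3 to 7. Stabilized bound RNA gave 1, 4 with DESeq2, 5 with no filter, 2 with only the groups compared and 0 with the length offset, with a range of 0 to 2. Stabilized GFP-negative cells gave 0, and 2 with DESeq2 or no filter, with a range of 0 to 2. Bound RNA of cortex against choroid plexus gave 4, and 2 with the length offset, with a range of 2 to 4. WT ECs between tissues gave 6, and 10 with no filter. WT GFP-negative cells between tissues gave 3, with a range of 3 to 8. By estimated counts in place of TPM, the share in transcripts with an IRE moved to 90.1% for Tfrc, 96.4% for Slc40a1 and 68.5% for Ftl1 in WT cerebellum ECs.

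Same-numbered replicates did not deviate together (52 pairs, r from -0.21 to 0.144, 1 over 0.1), and the labels do not tie a number to a sort or homogenate, so the numbers were not taken to pair the libraries. Per the study's methods the lobes were separated from the same pituitaries, so their libraries can share mice. The main tests between lobes did not take this into account. Many of the pairs joined different tissues or genotypes, so low r does not show that libraries of shared mice vary independently. Bound and input were aliquots of the same homogenates, and their 4 correlations were 0.049 to 0.144. With the replicate block 1 call of 45 was lost, Slc40a1 in stabilized bound choroid plexus RNA, which left 0 there, and 3 were gained, Cp in stabilized anterior and posterior ECs and Fth1 between posterior GFP-positive and GFP-negative cells. With 2 libraries a group, low RNAs such as Slc40a1 and Tfrc in WT posterior ECs rest on few reads, and their fold changes are imprecise.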
